A study of Mus musculus with 47 samples.

Results

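Nfil3, Rora and Tox, 3 transcription factor genes known for their roles in innate lymphoid development, were followed through 47 RNA-seq libraries of mouse T-cell precursors. They were chosen by name, and are 3 of the 17754 genes in the table. The study asked what the loss of Bcl11b, a zinc-finger transcription factor of T-lineage commitment, does to gene expression in these precursors. Double-negative (DN) precursors pass through the stages DN2a, DN2b and DN3 before they carry CD4 and CD8. The largest sets were 14 knockout and 11 control libraries of fetal liver origin, cultured over OP9-DL1 (8 and 8) or OP9-DL4 (6 and 3) stroma, which presents the Notch ligand Delta-like 1 or 4. The knockout cells came from Bcl11bfl/fl embryos, some with a ROSA26R-YFP reporter, and the controls from C57BL/6 embryos with or without it. Both received a Cre retrovirus before differentiation, and both grew with Flt3L and IL-7. Per the labels' protocols, floxed cells were sorted as DN2a and Bcl11b-intact cells as DN2b, but the titles differ from this for some libraries. By title, 5 knockout libraries and 3 controls are DN2 and 1 knockout library is DN2b, while the remaining 8 of each genotype are DN2a and DN2b, respectively, so that genotype and sort gate are confounded in most but not all of them. IL-7 was reduced in 4 of the knockout and 3 of the control libraries, a practice the labels say was given up because it harmed cell recovery and RNA quality. Cells without Cre gave 4 untreated DN2a and 2 untreated DN2b libraries on DL1, and 2 of each stage given GSI, an inhibitor of gamma-secretase that stops Notch signalling.

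GSI was given at 1 uM for 12 hours in each treated library above. Apart from these sets, the other 12 libraries were mostly single. In tamoxifen-induced bone marrow precursors of CreERT2 mice, differentiated on DL4, 1 library with floxed Bcl11b was labelled knockout and 1 with wild-type Bcl11b control. From the thymus there were freshly sorted DN2 cells deleted in vivo by an Lck promoter-driven Cre with a control DN3 library, and fresh DN3 cells of CreERT2 mice with and without the floxed allele. DN3 cells treated with 4-OH tamoxifen and cultured on DL4 for 3 or 4 days gave 2 control libraries and 1 knockout. Lastly, fetal liver cells on DL1 carried a second vector at day 12: control and knockout with an empty vector, and knockout with a Bcl11b vector. In total 19 libraries were labelled knockout and 28 held cells without a deletion.

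NFIL3 is a basic leucine zipper repressor that binds D-box elements, and natural killer (NK) cells and other innate lymphoid cells depend on it at an early progenitor stage. RORα, the product of Rora, is a nuclear receptor that binds a half-site preceded by A and T bases, and group 2 innate lymphoid cells need it. TOX is a high-mobility-group box protein needed both for the CD4 lineage in the thymus and for NK and lymphoid tissue inducer cells. NFIL3 and RORα also act in the circadian clock, where they meet at the same target genes.

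Promoter sequences are shown because both factors read known elements and the members could share one. They are the 250 bases before the annotated start in the RefSeq table (GRCm38.p6), on the gene's own strand, from chr13:52981040-52981289 (minus strand) for Nfil3 and chr9:68653536-68653785 (plus strand) for Rora. The table gave a window for 2 of the 3 members. Capitals mark the match to the ROR element TAGGTCA, here on the opposite strand.
Nfil3: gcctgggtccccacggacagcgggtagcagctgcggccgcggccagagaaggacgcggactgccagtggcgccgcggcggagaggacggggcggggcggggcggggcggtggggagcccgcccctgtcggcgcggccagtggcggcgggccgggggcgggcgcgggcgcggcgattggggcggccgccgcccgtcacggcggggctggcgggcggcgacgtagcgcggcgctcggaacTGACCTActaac
Rora: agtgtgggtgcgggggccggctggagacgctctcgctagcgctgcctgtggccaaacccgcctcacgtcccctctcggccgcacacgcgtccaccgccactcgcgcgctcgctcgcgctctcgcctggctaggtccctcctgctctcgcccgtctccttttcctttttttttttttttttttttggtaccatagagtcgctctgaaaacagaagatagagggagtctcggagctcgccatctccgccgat
The Nfil3 window held 1 ROR half-site (AGGTCA), at bases -12 to -7 before the start, and with the next base it made TAGGTCA. Both strands were searched in 32851 windows of equal length, of which 14.0% held AGGTCA, 2.23% TAGGTCA and 2.06% a D-box (TTANGTAA). The TAGGTCA match contains the AGGTCA match and is not a separate one. Neither window held a D-box, and that of Rora held none of the 3 motifs. These are matches of letters and say nothing of binding.

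Values are FPKM adjusted by the authors for batch, with a floor of 0.1, and sequencing depth is unknown. The number of genes reaching 1 FPKM was 11756 to 13370 per library. Bcl11b transcript was lower in knockout than in control fetal liver cultures by a log2 difference of -1.22 (standard error 0.21, limma adjusted p = 0.000127), with 23.96 ± 7.06 FPKM (SD, n = 14) against 56.39 ± 19.82 FPKM (SD, n = 11). It was not lower in the bone marrow library labelled knockout (log2 difference 0.00). Some libraries are 1 culture harvested on several days, and the labels do not name separate embryos for the rest, so p-values measure the spread between these libraries. In bulk RNA, more cells with a transcript and more transcript per cell cannot be told apart. Reads were not stranded, but the antisense genes annotated over Rora and Tox, Gm15511 and Gm11802, stayed at or below 0.70 and 1.28 FPKM in all 47 libraries.

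Nfil3 was higher in fetal liver knockout cells on both stromas and in all 3 years of the titles. On DL1 the 8 knockout libraries ran from 10.5 to 20.2 FPKM with a median of 16.1, and the 8 controls from 4.09 to 9.59 with a median of 7.01. On DL4 the 6 knockout libraries ran from 15.7 to 19.5 FPKM with a median of 17.0, and the 3 controls stood at 3.10, 12.3 and 7.54. Within each stroma the ranges did not overlap. For this and for the later counts of libraries above or below a range, the share of all genes that separate likewise was not counted. Small groups separate easily, so these counts only describe the values. The log2 difference over the 14 and 11 libraries, with stroma and IL-7 as covariates, was 1.16 (SE 0.15, limma adjusted p = 2.52e-06). In that fit limma called 2142 of 12678 genes, or 16.9%, so that a call as such was common.

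Against all 28 libraries without a deletion, 13 of the 14 fetal liver knockout libraries had more Nfil3 than the highest, 12.3 FPKM in control DL4 replicate 2. The exception was knockout DL1 replicate 5 at 10.5 FPKM, from a culture sampled on days 9, 10 and 12. That culture had 15.9, 20.2 and 10.5 FPKM on those days, and the control culture sampled beside it 9.13, 8.87 and 6.50. Of 9 pairs of knockout and control libraries that shared a title date, stroma and IL-7, Nfil3 was higher in the knockout in 9. These are 7 pairs of cultures, with a mean log2 difference of 1.32 ± 0.60 (SD, n = 7; exact two-sided sign-flip permutation p = 0.0156, the smallest 7 pairs allow). The pair differences were smallest in the middle year on DL4 (0.56, from 12.3 to 18.6 FPKM) and largest in the earliest year on DL4 (2.32, from 3.10 to 19.5 FPKM).

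**Figure D1:**
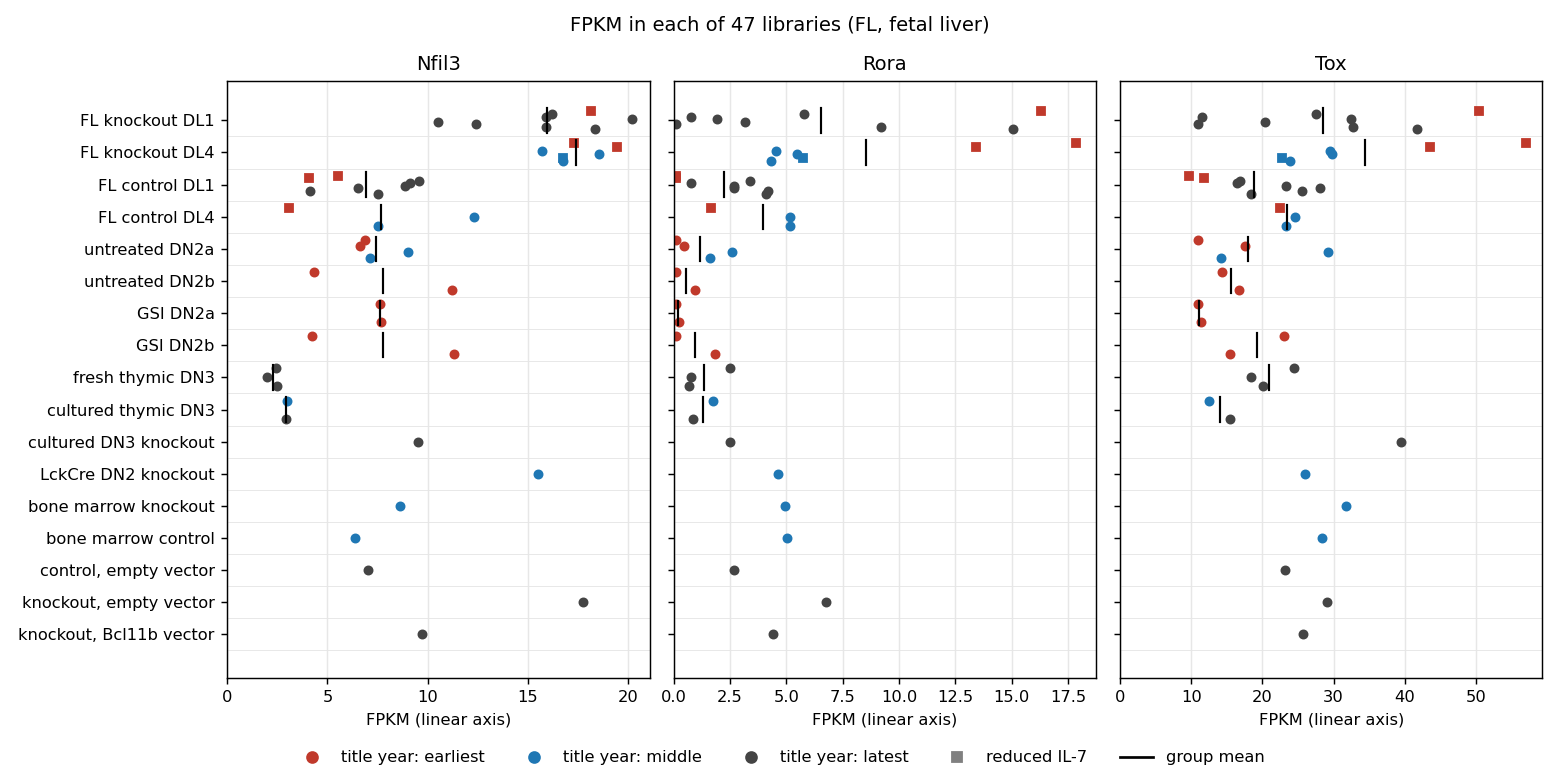
FPKM (linear axes) of Nfil3, Rora and Tox in each of the 47 libraries, 1 row per group; points are libraries, coloured by the year in the title, squares mark reduced IL-7 and vertical bars are group means. Fetal liver knockout libraries reach 20.2 FPKM of Nfil3 and all but 1 lie above the highest library without a deletion (12.3), whereas those of Rora run from 0.1 to 17.9 FPKM and those of Tox from 10.9 to 57.0, with the 3 libraries of the earliest year at or near the top.

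Some libraries carry the same titled stage in both genotypes. In the latest year the 5 knockout and 3 control libraries titled DN2 differed by 0.82 on the log2 scale (SE 0.23), which was not called (limma adjusted p = 0.127). The 3 controls are 1 culture sampled on days 9, 10 and 12, and 3 of the 5 knockout libraries are likewise 1 culture. The SE and p-value thus do not measure a spread between control cultures. In the pair titled DN2b in both genotypes the values were 15.9 and 4.11 FPKM. Untreated DN2a cells had 6.90, 6.63, 9.00 and 7.15 FPKM, all below every fetal liver knockout library. Compared with them, the 7 DL1 knockout libraries with standard IL-7 were higher by a log2 difference of 0.97 (standard error 0.17, limma adjusted p = 0.00364; 2196 of 12979 genes or 16.9% called). All 7 were above all 4. Of these 7 knockout libraries 5 are titled DN2, 1 DN2b and 1 DN2a, so that the titled stages are mostly not matched. Normal DN2a cells did not have Cre, and 2 of the 4 came from the earliest and 2 from the middle year, while the knockout libraries came from the latest. With 1 value per culture the log2 difference was 1.01. In the same fit 5 of 9 double-positive markers were called higher in the knockout libraries, Cd4 and Cd8a among them, whose values are described further on.

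Single libraries from the thymus, which carry no test, lay the same way. The LckCre DN2 knockout had 15.5 FPKM of Nfil3 and its control, of the later stage DN3, 2.43 FPKM. This is a log2 difference of 2.27, where 4.73% of genes were higher by a log2 difference of 1 or more. Both genotype and stage differ between these libraries. When deletion was induced in DN3 cells in culture, the knockout had 9.51 FPKM and the 2 cultured controls 2.97 and 2.93 FPKM, a log2 difference of 1.41 (10.3% of genes past 1). In bone marrow Nfil3 was at 8.64 FPKM in the library labelled knockout and 6.37 in its control (log2 difference 0.39; 1.46% of genes past 1), the pair in which Bcl11b did not differ.

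Adding Bcl11b back went with less Nfil3. Knockout cells with an empty vector had 17.8 FPKM, against 7.03 in control cells with an empty vector (log2 difference 1.23; 5.07% of genes past 1). With the Bcl11b vector the knockout cells had 9.75 FPKM, a log2 difference of -0.81 from the empty vector, and 2.92% of 13250 genes fell further. Past a log2 difference of -1, which Nfil3 did not reach, lay 1.64% of genes. Bcl11b itself was 2.05 higher on the log2 scale with its vector.

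Rora, unlike Nfil3, was not called over the fetal liver cultures. The knockout libraries ran from 0.1 to 17.9 FPKM with a median of 5.60, and the controls from 0.1 to 5.16 with a median of 2.70. The log2 difference was 0.87 (SE 0.41, limma adjusted p = 0.158). On DL1 the knockout libraries had 16.3, 5.80, 0.78, 1.94, 3.19, 0.1, 9.22 and 15.0 FPKM, and on DL4 17.9, 13.4, 4.55, 5.47, 5.72 and 4.31 FPKM. Only 1 knockout library was at the floor, where 2 controls stood, and 8 of 14 were above all 28 libraries without a deletion. Rora was higher in 6 of 9 date-matched pairs and in 5 of 7 pairs of cultures (mean log2 difference 1.27 ± 1.54, SD, n = 7; exact two-sided sign-flip permutation p = 0.0938).

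The 3 knockout libraries of the earliest year had 13.4 to 17.9 FPKM of Rora, and the 3 controls of that year 0.1, 0.1 and 1.64. In the middle year the 4 knockout libraries (4.31 to 5.72) and the 2 controls (5.14 and 5.16) overlapped. In the latest year, 2 day-12 knockout libraries stood out at 9.22 and 15.0 FPKM, against 4.17 and 4.11 FPKM in the controls of the same dates. The other 5 of that year ran from 0.1 to 5.80. The culture of the day-12 library at 9.22 FPKM had been at the floor on day 9, and the culture sampled on days 9, 10 and 12 had 0.78, 1.94 and 3.19 FPKM, beside 0.79, 2.70 and 2.67 FPKM in its control culture. Over the DL1 libraries with standard IL-7 the knockout difference at day 12 exceeded that at days 9 to 10 by 1.24 on the log2 scale (SE 0.79, limma adjusted p = 1). No gene passed this test of days (0 of 13674 or 0%, with 312 at an unadjusted p under 0.05). In simulated data it called 9% of log2 differences of 1 and 81% of those of 2, so smaller differences could be missed. The changed genes there were at 5 FPKM or more in at least as many libraries as the smallest group. These rates need not hold for Rora, with its SE of 0.79 and several values near the floor.

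**Figure D2:**
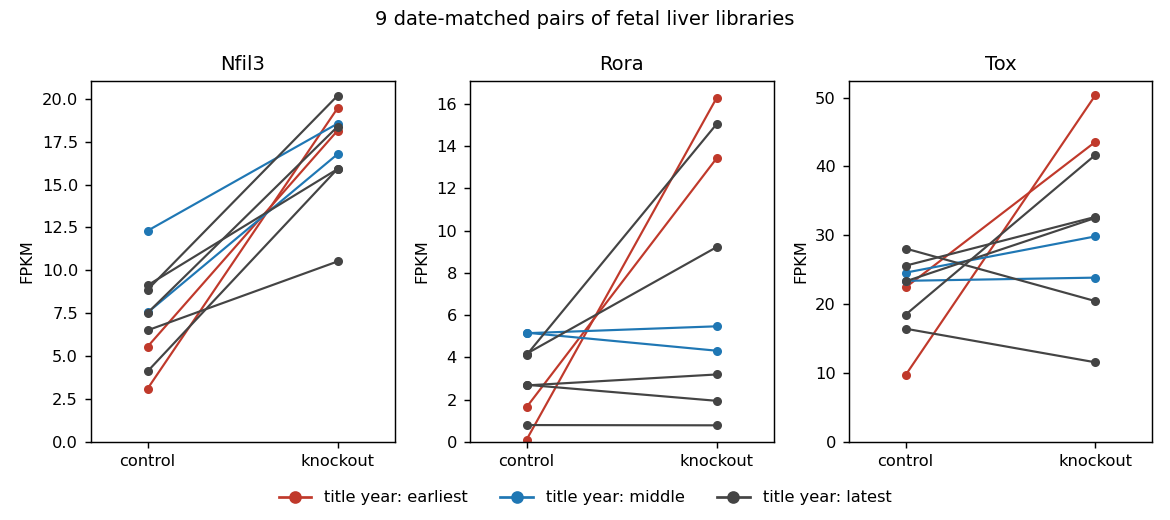
FPKM of each member in the 9 pairs of fetal liver libraries that share a title date, stroma and IL-7, with a line from control to knockout coloured by the year in the title. All 9 Nfil3 lines rise, while 6 of 9 rise for Rora and 7 of 9 for Tox, the earliest-year pairs among the steepest.

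Rora in the remaining material lay between the floor and 6.74 FPKM. Untreated DN2a cells had 0.1, 0.45, 2.58 and 1.63 FPKM, and the difference of the 7 DL1 knockout libraries with standard IL-7 from them was not called (log2 difference 1.13, SE 0.63, limma adjusted p = 0.231). The LckCre knockout had 4.62 FPKM against 2.51 in its control, and the cultured DN3 knockout 2.51 FPKM against 1.76 and 0.87. Bone marrow had 4.93 FPKM in the knockout and 5.03 in the control. With vectors, Rora was at 2.69 FPKM in control cells, 6.74 in knockout cells with an empty vector and 4.40 with Bcl11b, the same order as for Nfil3. Of these comparisons of single libraries only knockout with empty vector against control reached a log2 difference of 1 (1.07).

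Tox was abundant in every library, with 9.68 FPKM at the lowest, and its knockout difference was the smallest of the 3. Knockout libraries on DL1 had 50.4, 27.5, 11.5, 32.5, 20.4, 10.9, 32.7 and 41.7 FPKM, and on DL4 57.0, 43.6, 29.5, 29.8, 22.8 and 23.8 FPKM. Controls ran from 9.68 to 28.1 FPKM on DL1 (median 17.6) and stood at 22.4, 24.6 and 23.4 on DL4. The groups overlapped, with 8 of 14 knockout libraries above all 28 libraries without a deletion and 6 within their range. The log2 difference was 0.48 (SE 0.22, limma adjusted p = 0.157). It was higher in 7 of 9 date-matched pairs and in 6 of 7 pairs of cultures (mean 0.69 ± 0.83, SD, n = 7; exact two-sided sign-flip permutation p = 0.0469). With 1 value per culture instead of 1 per library, the difference was 0.65 and was called (limma adjusted p = 0.0444). That fit was added after seeing the data. The planned fit with a replicate block of the 7 pairs of cultures did not call Tox.

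In the thymus Tox was higher after induced deletion and near its control level with LckCre. The cultured DN3 knockout had 39.5 FPKM and its controls 12.6 and 15.5, a log2 difference of 1.44 that 5.06% of genes exceeded. The LckCre knockout had 25.9 FPKM and its DN3 control 24.4. In bone marrow the values were 31.8 and 28.4 FPKM, and with vectors 23.2 in control, 29.1 in knockout and 25.8 in knockout with Bcl11b. Each of these groups is a single library except the 2 cultured controls, so no test was made.

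The knockout difference of all 3 genes was larger in cultures with reduced IL-7. With reduced IL-7 alone it was 1.98 for Nfil3, 3.04 for Rora and 1.40 for Tox on the log2 scale. Nfil3 was called (limma adjusted p = 0.00451) and Tox was not (0.104). The controls there had 0.1, 0.1 and 1.64 FPKM of Rora, so that it passed the filter only through the knockout libraries. No test is given for Rora in that set. With standard IL-7 alone the knockout difference was 0.91 for Nfil3 (limma adjusted p = 0.000327), 0.11 for Rora (0.909) and 0.14 for Tox (0.779). The test of the difference between these differences gave 0.92 (SE 0.29), 2.86 (SE 0.73) and 1.28 (SE 0.44), with limma adjusted p = 0.181, 0.0671 and 0.227, and called none of the 3. It called 100 of 14271 genes (0.701%). Leaving out single libraries moved that count between 40 (without knockout DL1 replicate 1) and 202 (without knockout DL4 replicate 5), and Rora was called without knockout DL1 replicate 7 or 8, knockout DL4 replicate 5 or control DL1 replicate 4. Nfil3 was called without control DL1 replicate 7.

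All reduced-IL-7 libraries but 1 are the Cre libraries of the earliest year, so IL-7 and year cannot be told apart over most of them. The one exception, knockout DL4 replicate 5 of the middle year, had 16.7 FPKM of Nfil3, 5.72 of Rora and 22.8 of Tox. Knockout DL4 replicate 4, with the same title date and standard IL-7, had 18.6, 5.47 and 29.8 FPKM. The library with reduced IL-7 was thus near or below the other for the 3 genes. With the earliest year in place of reduced IL-7, the test of the difference between differences gave 3.19 for Rora (limma adjusted p = 0.0146) and 1.59 for Tox (0.0433), both called, and 0.96 for Nfil3 (0.105), and it called 257 genes. This test by year was added after seeing the data. Controls and cells without Cre of the earliest year were low in Rora too: 11 libraries of normal fetal liver cells, GSI-treated ones included, ran from 0.1 to 1.84 FPKM, 6 of them at the floor.

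**Figure D3:**
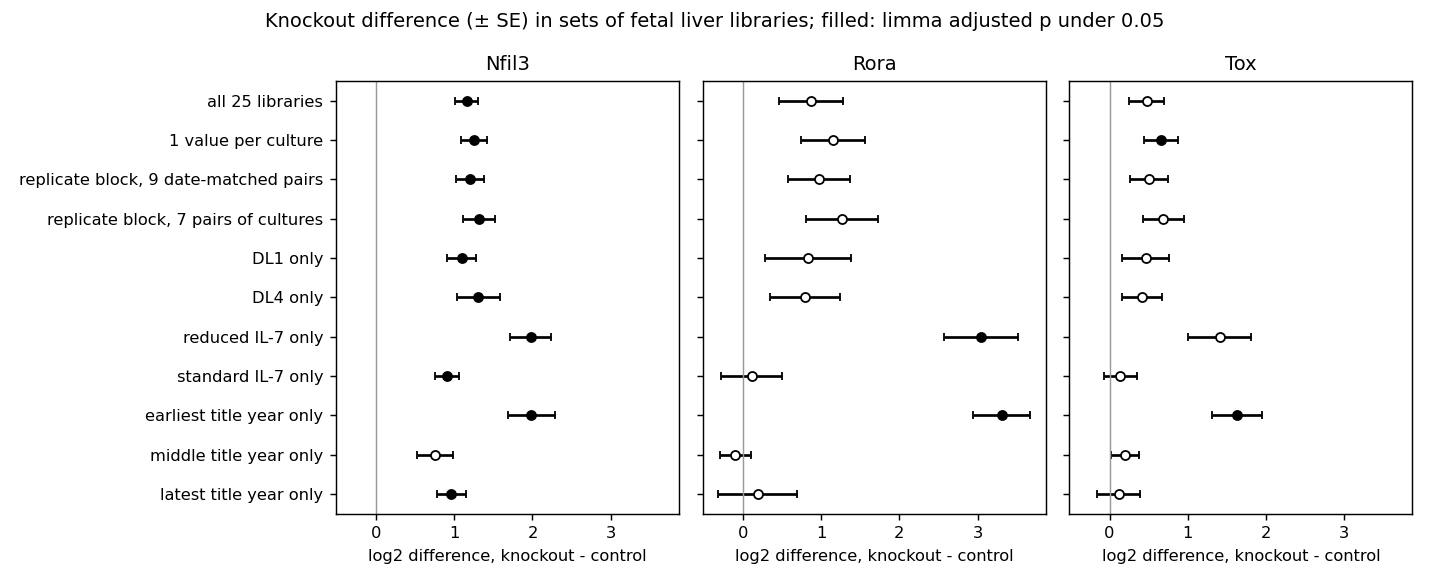
Knockout minus control differences of log2(FPKM + 1) with their standard errors for Nfil3, Rora and Tox in sets of fetal liver libraries; filled points have a limma adjusted p under 0.05 and open points do not. Nfil3 stays between 0.75 and 1.98 in all 11 sets shown, while Rora runs from -0.10 in the middle year to 3.31 in the earliest and Tox from 0.12 in the latest year to 1.63 in the earliest. With reduced IL-7 only and in the earliest year only, Rora passed the filter only through knockout libraries. Its filled points there are not read as calls.

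Cd4 and Cd8a, chosen after their values were seen, encode the coreceptors that double-negative cells lack, yet Cd4 was at the floor in only 9 and Cd8a in only 7 of the 47 libraries. In some sets of libraries they lay at near-constant values and in others they did not. Cd4 was at 31.0 to 31.5 FPKM in the 3 DL1 controls with standard IL-7 titled DN2, at 9.25 to 10.1 FPKM in the 4 middle-year knockout libraries on DL4 and at 23.4 and 23.7 FPKM in the 2 controls of that year. It ran from 36.7 to 59.4 FPKM in the 3 DL1 controls with standard IL-7 titled DN2b, from 0.1 to 17.6 in the earliest-year knockout libraries and from 0.21 to 19.9 in untreated DN2a cells. Cd8a differed 2.47 times among the 4 middle-year knockout libraries on DL4. For the members the Pearson r with Cd4 across the 47 libraries was 0.33 (Nfil3), 0.26 (Rora) and 0.16 (Tox). Rora in the 2 middle-year DL4 controls was at 5.14 and 5.16 FPKM, a ratio of 1.00, while Nfil3 there differed 1.63 times. The authors adjusted all values for batch, and the part of that adjustment in these values was not tested.

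No difference of the knockout effect between libraries on DL4 and on DL1 was detected. With standard IL-7 all DL1 libraries came from the latest year and all DL4 libraries from the middle year. Stroma and year thus cannot be told apart there. The difference on DL4 minus that on DL1 was 0.21 (SE 0.33) for Nfil3, -0.03 (SE 0.89) for Rora and -0.04 (SE 0.49) for Tox, each with a limma adjusted p of 1. No gene passed (0 of 14271 or 0%, with 338 at an unadjusted p under 0.05). The standard error of Rora leaves room for a sizeable difference.

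Between normal stages neither Nfil3 nor Tox passed the test. Untreated DN2b cells had 4.34 and 11.2 FPKM of Nfil3, 0.1 and 0.96 of Rora and 14.4 and 16.8 of Tox, on either side of the DN2a range for Nfil3 and within it for Rora and Tox. The log2 differences of DN2a against DN2b were 0.05 (SE 0.33) for Nfil3 and 0.11 (SE 0.35) for Tox, with limma adjusted p = 0.928 and 0.848, where 13.5% of 13364 genes were called. Without DN2b replicate 1, which is titled DN3, the count of called genes was 60 in place of 1799, and Nfil3 was -0.55 and not called. Rora reached 1 FPKM in 2 DN2a libraries and in neither DN2b library, so that it passed the filter only through DN2a, and no test is given for it. Those 2 libraries are of the middle year and both DN2b libraries of the earliest. In the earliest year DN2a cells had 0.1 and 0.45 FPKM of Rora, beside 0.1 and 0.96 in DN2b cells. Stage and year are thus partly confounded in this comparison.

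With GSI, too, no member passed at the 1 dose and 1 exposure time used. Nfil3 had 7.62 and 7.66 FPKM in treated DN2a and 4.22 and 11.3 FPKM in treated DN2b cells, close to 6.90, 6.63, 4.34 and 11.2 FPKM in the untreated partners. Its log2 difference was 0.07 (SE 0.33), and that of Tox -0.02 (SE 0.21), both with a limma adjusted p of 1. Rora stayed at or below 1.84 FPKM with and without GSI and was not tested there. No gene was called for GSI (0 of 12783 or 0%, with 297 at an unadjusted p under 0.05) or for its difference between stages (0 of 13873 or 0%, with 129). In simulated data the GSI fit called 56% of log2 differences of 1 and 90% of those of 2. The fit of the difference between stages called 0% and 21%, so its lack of calls says little.

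Nfil3 was lowest in thymic DN3 cells. Fresh DN3 cells had 2.00 to 2.48 FPKM in 3 libraries and cultured control DN3 cells 2.93 and 2.97. Against the 6 DL1 controls with standard IL-7 (4.11 to 9.59 FPKM) the fresh cells were lower by a log2 difference of -1.35 (standard error 0.24, limma adjusted p = 0.00248; 14.6% of 13501 genes called), with no overlap. The fresh cells are thymic and the controls are fetal liver cultures, so that source and culture differ together with stage. Tox (-0.01, limma adjusted p = 0.979) was not called. Rora was -0.78, and -0.99 without control DL1 replicate 4. Its fresh values were 2.51, 0.79 and 0.69 FPKM, so that it passed the filter only through the controls, and no test is given for it. Fresh cells also held less stromal RNA, with 11 stromal markers summing to 21.3 to 26.9 FPKM against 34.2 to 87.4 in those controls, and its part in the Nfil3 difference was not tested. The cultured DN3 controls, at 33.9 and 66.4 FPKM of stromal markers, showed no called difference from fresh DN3 cells in any member. The log2 differences of fresh against cultured were -0.26, -0.05 and 0.55 for Nfil3, Rora and Tox (limma adjusted p = 0.591, 0.947 and 0.352), where 0.0832% of 13215 genes were called. In simulated data this fit called 3% of log2 differences of 1 and 52% of those of 2, so differences could be missed.

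By group means Nfil3 thus fell into 3 levels. Knockout with empty vector (17.8 FPKM), knockout on DL4 (17.4 ± 1.35, SD, n = 6), knockout on DL1 (16.0 ± 3.18, SD, n = 8) and the LckCre knockout (15.5) stood first. The knockout DL1 range took in the other 3, and the LckCre library lay just below the lowest knockout DL4 library (15.7). The Bcl11b vector, cultured DN3 knockout and bone marrow knockout libraries followed at 9.75, 9.51 and 8.64 FPKM, inside the range of single libraries of the groups without deletion other than DN3, whose means ran from 6.37 to 7.78 FPKM. The 5 thymic DN3 libraries without an induced deletion came last. Rora and Tox showed no such levels. Mean Rora was 8.56 FPKM in knockout DL4 and 6.54 in knockout DL1, against at most 5.03 in a group without a deletion, but knockout libraries reached down to the floor. Mean Tox was highest in the cultured DN3 knockout (39.5 FPKM), then in knockout DL4 (34.4), and knockout DL1 (28.4) lay next to the bone marrow control (28.4).

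Rora and Tox varied together across knockout cultures. Over 11 knockout cultures, libraries of 1 culture averaged, Pearson's r of log2 values was 0.957 and Spearman's rho 0.882 (permutation p = 6e-05 and 0.00064, 0.00036 and 0.00384 after Benjamini-Hochberg adjustment over 6 relations). Without the 2 cultures farthest from the median r was 0.935, and within the 8 cultures of the later years 0.91. Nfil3 was less closely tied, with r of 0.794 to Rora and 0.737 to Tox (adjusted permutation p = 0.0103 and 0.017) and rho of 0.655 and 0.764 (0.0513 and 0.0244). Without the 2 farthest cultures these r were 0.733 and 0.635, and in the later years 0.801 and 0.78. Over 9 control cultures the r of Rora with Tox was 0.843 and rho 0.778 (adjusted permutation p = 0.0323 and 0.0363), but r was 0.145 without the 2 farthest and 0.279 in the later years, so that it rested on those cultures. The relations of Nfil3 with Rora (r 0.522, rho 0.536) and Tox (0.203 and 0.15) in controls did not pass.

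Across all 47 libraries, which share batches and genotypes, the genes most like each member in log2 values were found among 10999 genes. For Nfil3 they were Vrtn (r 0.93), Tmem173 (0.92), which encodes the DNA-sensing adaptor STING, Apobr (0.92), Lgmn (0.91), a lysosomal protease, and Dapk2 (0.89), and the least alike were Llgl1 (-0.84), Lpcat1 (-0.83) and Dcp1b (-0.83). For Rora they were Tns4 (0.89), Fam129a (0.88), the interleukin-18 receptor gene Il18r1 (0.87), the chemokine receptor gene Cxcr6 (0.86) and St3gal6 (0.86), with Scarb1 (-0.76), Tsen54 (-0.73) and Ubash3a (-0.71) at the other end. For Tox they were the TGF-β receptor gene Tgfbr2 (0.89), Fam129a (0.86), Ikzf2 (0.86), which encodes Helios, Rora (0.85) and Med13 (0.84). Least like Tox were Chaf1b (-0.82), Tk1 (-0.78) and Dtymk (-0.77), which serve chromatin assembly and DNA synthesis. Fam129a stood among the 5 most alike for both Rora and Tox, and no gene was shared with Nfil3.

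Other innate lymphoid transcription factors gave a mixed picture in the fetal liver knockout. Of 16 tested, 7 were higher and 1 lower, with a median log2 difference of 0.37 against 0.04 over all genes. Zbtb16, which encodes PLZF, rose by 2.26 (limma adjusted p = 0.000354), Hhex by 1.28 (6.52e-07) and Id2, an E-protein inhibitor, by 1.10 (0.000395), while Ets1 fell by 0.92 (0.0179). Nfil3, at 1.16, was thus between Hhex and Id2 in size. Sort gate differs with genotype in most of these libraries. In normal DN2a against DN2b cells 3 of 17 tested were called higher, Zbtb16 and Hhex among them, and 2 lower. Against untreated DN2a cells, 5 of 17 were called higher in the DL1 knockout libraries with standard IL-7, Id2 among them. In that fit 3 were called lower, Hhex among them, and Zbtb16 was called neither way. These 2 fits called 13.5% and 16.9% of all genes. Of 25 innate lymphoid receptors, adaptors and effectors, 13 were higher and none lower in the fetal liver knockout fit, with a median of 0.79. The signalling adaptors Tyrobp (3.43, limma adjusted p = 1.40e-06) and Fcer1g (2.72, 1.72e-08) led, followed by Cxcr5 (2.32) and the NK receptor gene Klrd1 (2.09). Tyrobp was also called higher in normal DN2a than in DN2b cells. Against untreated DN2a cells Tyrobp, Fcer1g and Cxcr5 were called higher in the DL1 knockout libraries, and Klrd1 was called neither way. Ncr1, a defining receptor of NK cells, was at or near the floor in all 25 libraries (0.1 to 0.17 FPKM).

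A more positive knockout minus control difference with reduced IL-7 was seen in these lists and in others. It lay above that with standard IL-7 for 14 of the 16 transcription factors and 23 of the 25 receptors and effectors. The same held for 12 of 14 clock genes, 7 of 9 double-positive markers, 7 of 9 precursor markers and 3 of 4 paralogues. It also held for 9 of 14 pre-T-cell receptor and NFAT genes and 59.1% of all 12678 genes. These counts keep the sign, so they include losses that were smaller with reduced IL-7. Examples are Ets1 (-1.09 with standard and -0.41 with reduced IL-7) and Cd3e (-4.04 and -2.56). The medians of the first 2 lists were 0.22 and 0.42 with standard and 0.68 and 1.68 with reduced IL-7. Zbtb16 moved from 1.17 to 5.34, Id2 from 0.65 to 2.43 and Maf from 0.32 to 2.38, and limma called the difference for each of these (adjusted p = 8.02e-05, 0.0144 and 0.0282).

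**Figure D4:**
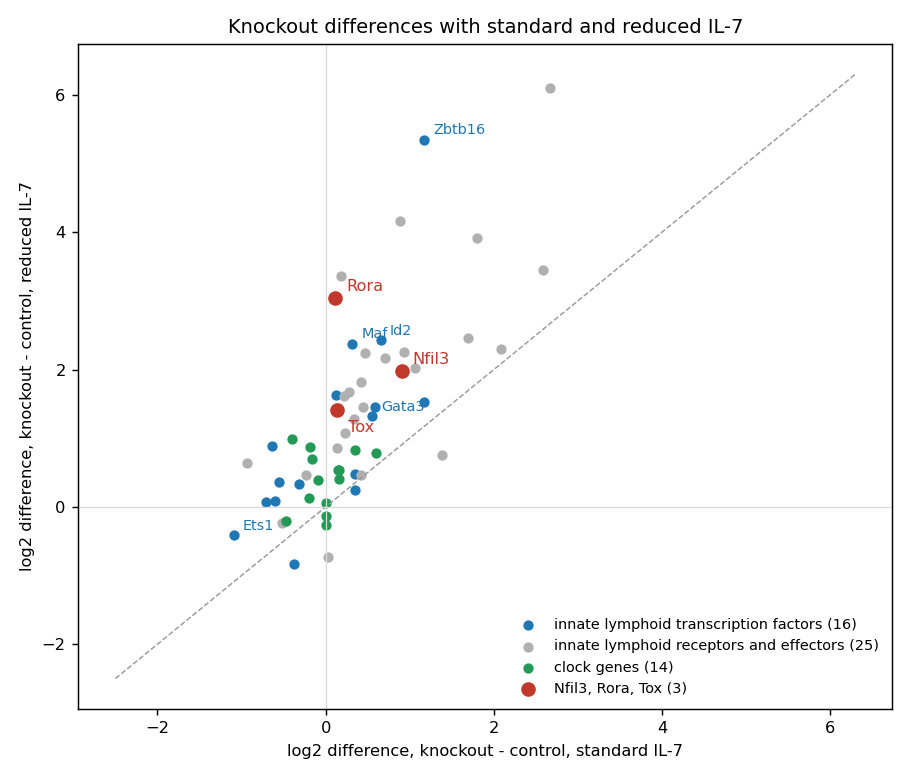
Knockout minus control differences of log2(FPKM + 1) with standard IL-7 (x axis) and reduced IL-7 (y axis) for the 3 members and for genes of 3 lists; each point is a gene and the dashed line marks equal differences. Rora (0.11 and 3.04) and Tox (0.14 and 1.40) lie near 0 on the x axis and above the line, and Nfil3 (0.91 and 1.98) lies to their right, with 14 of 16 transcription factors and 23 of 25 receptors and effectors also above the line.

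Clock genes, which NFIL3 and RORα regulate in other tissues, were mostly not called. Of 14 tested, Arntl (0.71, limma adjusted p = 0.042) and Per2 (0.48, 0.000629) were higher and Dbp, a D-box activator, was lower (-0.41, 0.0306), with a list median of 0.04, the median of all genes. Among the paralogues Tox2 rose by 1.29 (0.00508) and Tox3 fell by 1.41 (4.43e-08), so that the 2 called genes of the family went opposite ways. Tox3 was low, at 2.16 to 5.73 FPKM in controls and 0.1 to 1.70 FPKM in knockout cells. Tox4 (0.02) did not pass.

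Genes of pathways upstream of the members were tested in the fetal liver knockout fit, which called 16.9% of all genes. Of 13 genes of IL-7, IL-15 and IL-4 signalling, the kinase gene Pim1 was higher (0.63, limma adjusted p = 0.00192) and the feedback inhibitor gene Socs3 lower (-0.75, 1.97e-06). The other 11, with Stat5a, Stat5b and Jak3 among them, did not pass, so that calls were no more common in this list than over all genes. Of 14 pre-T-cell receptor and calcineurin-NFAT genes, a pathway that raises Tox in thymocytes, 9 were lower and none higher in this fit, with a median of -1.23. Cd3e fell by 3.84 (3.85e-06), Cd3d by 2.92 (0.000615), Cd3g by 2.47 (0.00573) and Ptcra by 2.22 (0.000227). Normal DN2a against DN2b cells, with 13.5% of all genes called, differed in both lists too. Of 13 cytokine genes 2 were higher, with Pim1, and 2 lower, with Socs3. Of 14 receptor and NFAT genes 5 were lower, with Cd3e, Cd3g and Ptcra, and none higher. Against untreated DN2a cells Socs3 was called higher in the DL1 knockout libraries.

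Markers of the precursors themselves were high in both genotypes. The 9 markers summed to 1192 to 2298 FPKM in knockout and 1639 to 2307 FPKM in control libraries, with Kit (0.96) and Gata3 (0.78) higher and Thy1 lower (-0.66) in the knockout. Of other cells, 11 stromal markers summed to 27.7 to 115.1 FPKM and 20.7 to 105.5 FPKM, and none of the 8 tested was called, Pdgfrb (-0.17) and Bgn (-0.14) being the most abundant. In the earliest year, where Rora and Tox differed most, the stromal sums were 34.4 to 40.4 FPKM in knockout and 20.7 to 105.5 in control libraries. The 8 myeloid and mast cell markers summed to 223.8 to 805.0 FPKM in knockout and 92.7 to 341.5 in control libraries, most of it Cpa3, which early precursors also express and which was called higher (1.35, limma adjusted p = 7.84e-05). The B-cell markers Cd79a and Ebf1 did not reach 1 FPKM in any fetal liver library, and Cd79b was lower in the knockout (-0.46, 0.0481). Of 4 erythroid genes Hbb-b2 was higher (1.34, 0.0167) and the other 3 were not called, with a list median of -0.12, and of 9 double-positive markers Cd5 was lower (-0.95, 0.000112). The part of these cells in the member differences was not tested.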

How the data were processed

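The authors deposited 1 table of FPKM values, merged and ComBat-adjusted per the file name, and the submitters' processing notes name build mm9. What aligner, batches and covariates they used is not given in the sources used here. Of its per-sample columns, 47 matched samples and 16 were not used. Depth is unknown. Tests used limma 3.58.1 in R 4.3.3 on log2(FPKM + 1), with a mean-variance trend and Benjamini-Hochberg adjustment over all genes at 1 FPKM or more in at least as many libraries as the smallest group; called means an adjusted p under 0.05. The fetal liver fit had stroma and IL-7 as covariates. Fold changes of genes near the floor of 0.1 FPKM are understated by the added 1. Python 3 with scipy gave permutation tests (100000 draws, or exact), correlations and motif counts. The fits were tested on simulated data with 200 changed genes. Of log2 differences of 1, the fetal liver fit called 95%, the test by stroma 49%, that by IL-7 44% and that by day 9%. DN2a against DN2b called 27%, GSI 56%, GSI by stage 0% and fresh against cultured DN3 3%.

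The members, the 12 gene lists and the tests were chosen with earlier results of these data known, and 8 alternatives were added after seeing the data. Among these were the fetal liver fits with 1 value per culture, with reduced IL-7 alone and with both later years. The test with the earliest year in place of reduced IL-7 was another. Genes named are the members, Bcl11b, up to 4 called genes of each list with the largest differences (its 2 most abundant where none was called), and the 5 most and 3 least alike genes of each member. Maf, Ncr1, Cd4, Cd8a, Cd79a, Ebf1, Jak3, Stat5a and Stat5b were named beside these after their values were seen. The 9 knockout pairs share title date, stroma and IL-7 in the labels, as the 4 GSI pairs share dates. Deviations from group means correlated between -0.05 and 0.53 within the knockout pairs. Each GSI group holds 2 libraries, so the 2 pairs of a stage give the same correlation by construction (0.71 in DN2a and 0.66 in DN2b). No columns were identical (highest correlation of 2 libraries 0.989). Promoters came from a RefSeq table of GRCm38.p6, and antisense genes from GENCODE M21. Left-out libraries, pseudocount 0.1, no filter, quantile normalization, other covariates, subsets and replicate blocks were the alternatives.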

Additional observations from a re-analysis of the deposited data

How the results depend on the processing

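The fetal liver call of Nfil3 held when each of 25 libraries was left out (1.04 to 1.25) and under 16 of 18 other settings; it was lost in the middle year alone (0.75) and in libraries titled DN2 of the latest year (0.82), which hold 6 and 8 libraries. Rora (0.66 to 1.08 with 1 library left out) was 3.31 in the earliest year alone, 3.04 with reduced IL-7 alone and -0.10 in the middle year. In the earliest year alone and with reduced IL-7 alone it passed the filter only through the knockout libraries, so no call is given there. Tox (0.37 to 0.58) was called in the earliest year alone (1.63) and with 1 value per culture (0.65), and was -0.10 in the libraries titled DN2. The replicate block of 9 pairs gave 1.21, 0.97 and 0.50 for Nfil3, Rora and Tox and, like that of 7 pairs of cultures, changed none of these 3 calls. Genes called numbered 2142 in all, 1282 with the replicate block of 9 pairs, 854 with that of 7, 1396 with standard IL-7, 1120 with standard IL-7 and 1 value per culture, 430 with reduced IL-7, 988 on DL1, 451 on DL4, 475, 270 and 778 in the earliest, middle and latest year, 1405 in both later years and 185 in libraries titled DN2; these sets hold fewer libraries.

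The knockout difference by IL-7 was called for Rora (3.19) and Tox (1.59) with the earliest year in place of IL-7 and for Rora with 1 value per culture (2.85); with 1 library left out Nfil3 ran from 0.66 to 1.10, Rora from 2.51 to 3.21 and the genes called from 40 to 202, with 59 after quantile normalization. Differences near 0 changed sign with 1 library left out, none of them called. By stroma, Nfil3 ran from -0.26 to 0.54, Rora from -0.56 to 0.43 and Tox from -0.19 to 0.20. For DN2a against DN2b, Nfil3 ran from -0.55 to 0.65 and Tox from -0.14 to 0.30. They were -0.058 and -0.15 with the replicate block, and Tox was -0.24 with GSI libraries added. For GSI, Nfil3 ran from -0.16 to 0.34 and Tox from -0.18 to 0.16, with Tox at 0.022 after quantile normalization. For GSI by stage, Nfil3 ran from -0.45 to 0.79. For fresh against cultured DN3, Rora ran from -0.33 to 0.23. For fresh DN3 against cultured DN2b, Tox ran from -0.12 to 0.072, and Rora was -0.99 without control DL1 replicate 4. Genes called ran from 60 to 1406 for DN2a against DN2b with 1 library left out (1065 with pseudocount 0.1, 624 with the replicate block, 4891 with GSI libraries), from 1160 to 2404 for knockout against normal DN2a, from 1 to 115 for fresh against cultured DN3 and from 1039 to 2874 for fresh DN3 against cultured DN2b. The causes were not tested. Nfil3 was called in both of its other called comparisons under every setting run.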
